A study of Mus musculus with 35 samples.

Results

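RNA sequencing compared the hypothalamus of mice fed a high-fat high-sugar diet (HFHS) with that of mice fed standard chow (SC), in cells enriched for astrocytes. The comparison rests on 11 libraries of the 35 in the series, 6 on SC and 5 on HFHS, taken by their titles. The series also holds 12 libraries from the hippocampus and 12 from the cortex, which enter only the tests of whether the diet difference was particular to the hypothalamus. All mice were male C57BL/6JRj animals, 8 to 9 weeks old when the diets began, and stayed on them for 4 months. The series gives 58% with the HFHS diet without saying what the figure counts. Each library pooled 2 animals, so that n counts pools and the p-values measure the spread between pools. Dissociated cells were kept when they bound magnetic beads against ACSA2, a surface antigen that the Atp1b2 gene encodes, and the cells that did not bind are not analysed here.

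The hypothalamus reads hormones and nutrients in the blood and sets food intake and energy use. Its astrocytes clear glutamate and potassium around neurons, wrap vessels with endfeet, store glycogen, pass lactate to neurons and can oxidise fatty acids. Tanycytes, the elongated ependymal cells that line the floor of the third ventricle, carry hormones between blood, ventricle and parenchyma. Oligodendrocyte precursor cells persist in the adult hypothalamus and pass through a committed stage, marked by Gpr17, before they make myelin.

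The libraries held between 47733663 and 57626372 estimated counts, and between 17970 and 19677 genes reached 10 counts. The fraction was not made of astrocyte RNA alone. The 19 astrocyte marker genes were all detected and held 0.666 to 1.11% of the counts on SC, with a median of 0.925%, whereas 16 genes of mature oligodendrocytes held 10.1 to 13.0%, with a median of 11.6%. Such shares follow how strongly each gene is transcribed and are not shares of cells. A pair of libraries stood apart. The library HFHS 2 had 3.23% of its counts in astrocyte markers and 5.49% in mature oligodendrocyte genes, against 0.944 to 1.24% and 10.1 to 14.8% in the other HFHS libraries. SC 6 had counts from shorter transcripts, with a count-weighted mean length of 2484 bases against 2813 to 2946 bases in the other SC libraries and 2531 to 2810 bases on HFHS. List counts and fitted values that moved by over 1.5 times without either library are given with and without it. In RNA from sorted pools, fewer cells of a type and less RNA per cell cannot be told apart.

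Across the hypothalamus the diet difference was small against the spread between pools. With edgeR's quasi-likelihood test, 0 of 19272 genes passed a Benjamini-Hochberg adjusted p of 0.05 (0.0%), and the smallest adjusted p was 0.333. At an unadjusted p under 0.05, 739 genes (3.83%) had the higher fitted level on HFHS and 900 (4.67%) the lower. Without HFHS 2, 439 of the 19272 genes were higher and 900 lower. Without SC 6, 1046 of 19059 were higher and 1484 lower, and without both libraries 830 of 19230 were higher and 1682 lower. Leaving out any 1 library gave 439 to 1046 higher and 615 to 1484 lower. With the mean transcript length of each library as a covariate, 1000 were higher and 776 lower. DESeq2, run as an alternative, called 115 genes at an adjusted p under 0.05: 34 rose (0.154% of the 22139 genes it tested) and 81 fell (0.366%). Of these 115, 99 also met the edgeR filter on low counts. All 99 had an unadjusted edgeR p under 0.05 and 55 had groups that did not overlap. Both tests used the same counts, so this is no independent support, and the edgeR adjusted p of each was at least 0.333. Among all genes tested by edgeR, every HFHS library was above every SC library for 85 (0.441%) and below for 76 (0.394%). Below, a gene is said to have risen or fallen only where DESeq2 called it, and other genes are given by their values. Gene lists are described by how many members had an unadjusted edgeR p under 0.05, to be read against 3.83% and 4.67% where all 11 libraries were fitted. List counts from a fit without a library or with the length covariate are to be read against the all-gene counts of such fits above. Lists are also described by their median log2 fold change, to be read against −0.01 over all genes. Members and lists were chosen with earlier results of these data known, so these counts describe the lists and are no test of them.

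**Figure D1:**
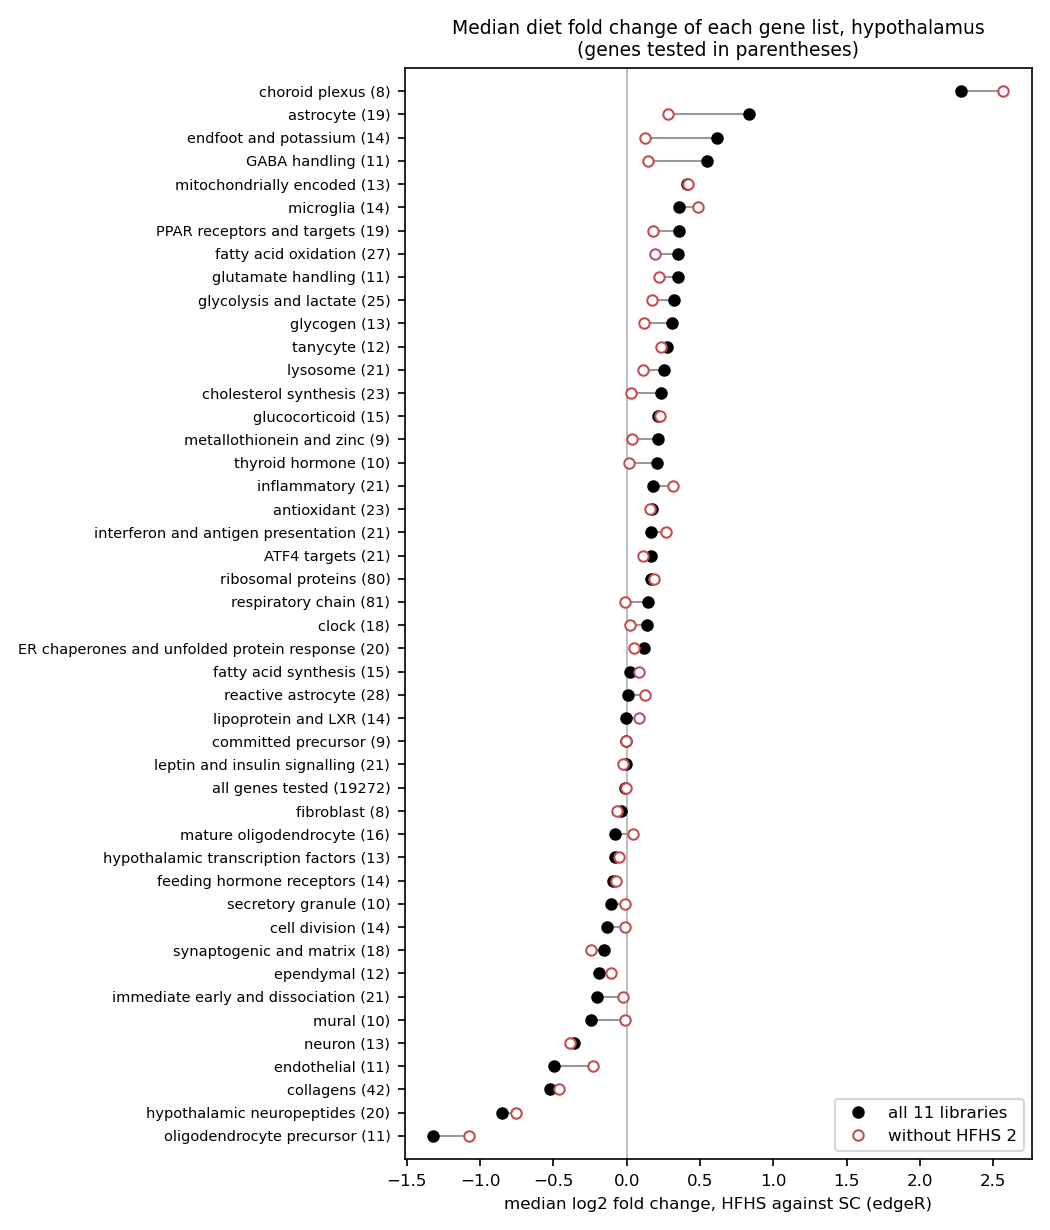
Median log2 fold change of each gene list, HFHS against SC, in all 11 hypothalamus libraries (black) and without HFHS 2 (open red), with the number of genes tested in parentheses. Oligodendrocyte precursor genes have the lowest median at −1.32 and choroid plexus genes the highest at 2.28, and the astrocyte median moves from 0.84 to 0.28 when HFHS 2 is left out.

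Among genes of at least moderate level, the 10 ranked first for lower levels on HFHS all fell by DESeq2. They were Gpr17, Col11a2, Ptpro, Hap1, Mfsd4a, Pdgfra, Kcnh3, Oprl1, Gigyf1 and Lingo3, with fitted log2 fold changes from −2.53 (Gpr17) to −0.87 (Hap1). Hap1, the huntingtin-associated trafficking protein that is abundant in hypothalamic neurons, had levels of 54.4, 59.9, 72.7, 76.1 and 75.3 CPM (counts scaled to library size) in HFHS libraries 1 to 5, and a lowest, median and highest SC value of 80.9, 131 and 139. Its groups did not overlap, the SC value nearest to HFHS being that of SC 6, and the log2 fold change was −0.87 ± 0.16 (SE; DESeq2 adjusted p 0.00187). Oprl1, the nociceptin receptor, was at 7.14, 3.45, 4.89, 10.9 and 8.11 CPM on HFHS and at 12.8, 18.5 and 23.5 CPM (lowest, median, highest) on SC, again without overlap (−1.43 ± 0.28 SE; DESeq2 adjusted p 0.00107). Ptpro, a receptor tyrosine phosphatase, and Kcnh3, a voltage-gated potassium channel of neurons, fell without overlap as well, by −1.17 and −1.05 on the log2 scale. Without SC 6 edgeR itself called 8 genes, each lower on HFHS: Hap1, Aldh1l2, Col11a2, Gfra1, Acap3, Polg, Gpr17 and Mfsd4a, with a smallest adjusted p of 0.0498. Without both SC 6 and HFHS 2 it called 0 genes, with a smallest adjusted p of 0.0504. In both of these fits every SC library had a longer mean transcript length (2813 to 2946 bases) than every HFHS library (2531 to 2810 bases). Diet and transcript length thus cannot be told apart in them. With all libraries and transcript length as a covariate, edgeR called 0 genes.

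Of the 10 genes ranked first for higher levels, 9 rose by DESeq2: Fbln5, Tank, Nqo1, Ttpa, Acaa2, Kdelr1, Mapk4, Acadl and Phyhd1. The other was Rora, with a DESeq2 adjusted p of 0.0656. Fbln5, an elastic fibre protein of the matrix, was at 115, 289.9, 55.2, 75.5 and 105 CPM on HFHS and at 33.1, 37.6 and 49.8 CPM (lowest, median, highest) on SC. Every HFHS library was above every SC library, HFHS 2 furthest, and the log2 fold change was 1.66 ± 0.34 (SE; DESeq2 adjusted p 0.00306). Ttpa, the vitamin E transfer protein, was at 15.5, 35.1, 8.36, 11.1 and 11.8 CPM on HFHS against 3.87, 5.96 and 8.03 CPM on SC, so that HFHS 3 lay just above the highest SC library, and its log2 fold change was 1.41 with all libraries and 0.93 without HFHS 2. Smaller but tighter differences were those of Tank, a binding partner of the TRAF signalling adaptors (log2 fold change 0.66 ± 0.15 SE), and Kdelr1, which retrieves escaped proteins from the Golgi to the endoplasmic reticulum (0.63 ± 0.16 SE), each without overlap between the diets.

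Genes of oligodendrocyte precursor cells were lower on HFHS than on SC. Of 11 genes tested, 8 had an unadjusted edgeR p under 0.05 and the lower level on HFHS, against 4.67% of all genes, 0 had the higher, and the median log2 fold change was −1.32; Pdgfra and Tnr fell by DESeq2. Together the 11 genes held 0.0457 to 0.108% of the counts on SC and 0.0117 to 0.0445% on HFHS, with no overlap. Pdgfra, the receptor through which platelet-derived growth factor keeps precursors dividing, was at 31.9, 29.9, 54.3, 108.7 and 57.6 CPM on HFHS and at 105.4, 238 and 453 CPM (lowest, median, highest) on SC. Only HFHS 4 reached into the SC range, just above its lowest library, and the log2 fold change was −2.08 ± 0.41 (SE; DESeq2 adjusted p 0.000461). Tnr, which encodes the matrix glycoprotein tenascin-R, was at 6.88, 8.76, 19.4, 21.8 and 9.09 CPM on HFHS against 20.5, 39.3 and 66.7 CPM on SC, with HFHS 4 alone inside the SC range (−1.63 ± 0.35 SE; DESeq2 adjusted p 0.00388). Vcan, the proteoglycan versican, differed less (−0.68 ± 0.19 SE; DESeq2 adjusted p 0.0901), but every HFHS library, from 9.34 to 17.7 CPM, was below every SC library, from 18.5 to 30.7 CPM. Cspg4, the NG2 proteoglycan that names these cells, had a fitted log2 fold change of −1.64 (−0.85 with the mean transcript length of each library as a covariate), and Cacng4, Sapcd2 and Xylt1 were the 3 members that missed the unadjusted threshold, also with negative values. Without HFHS 2 the lower count was 9 of 11 and the median −1.08, and without both HFHS 2 and SC 6 the count was 8 and the median −1.01.

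The committed stage differed at 3 of its 9 genes. Gpr17, the orphan receptor that marks cells leaving the precursor state, was at 20.4, 16.4, 38.2, 44.4 and 29.6 CPM on HFHS and at 57.0, 169 and 322 CPM (lowest, median, highest) on SC. The groups did not overlap, and Gpr17 had the smallest DESeq2 adjusted p of the named genes (1.66e-06; log2 fold change −2.53 ± 0.41 SE). Tmem163, a zinc transporter, was between 8.06 and 21.6 CPM on HFHS and between 21.7 and 43.6 CPM on SC, so that HFHS 1 and the lowest SC library almost touched. Neu4, a sialidase of the oligodendrocyte lineage, had a log2 fold change of −1.31 ± 0.49 (SE) with overlapping groups. The 6 other genes of the list, Bcas1, Bmp4, Enpp6, Fyn, Itpr2 and Tcf7l2, had fitted values between −0.13 and 0.31, and the median over the 9 genes was −0.01. Of the 16 genes of myelinating oligodendrocytes, 0 had an unadjusted p under 0.05 in either direction and the median was −0.08. Of 14 cell division genes, 1 was lower at that threshold. The lower values thus lay in genes of the precursor and in part of the committed set; no test compared the lists with each other.

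**Figure D2:**
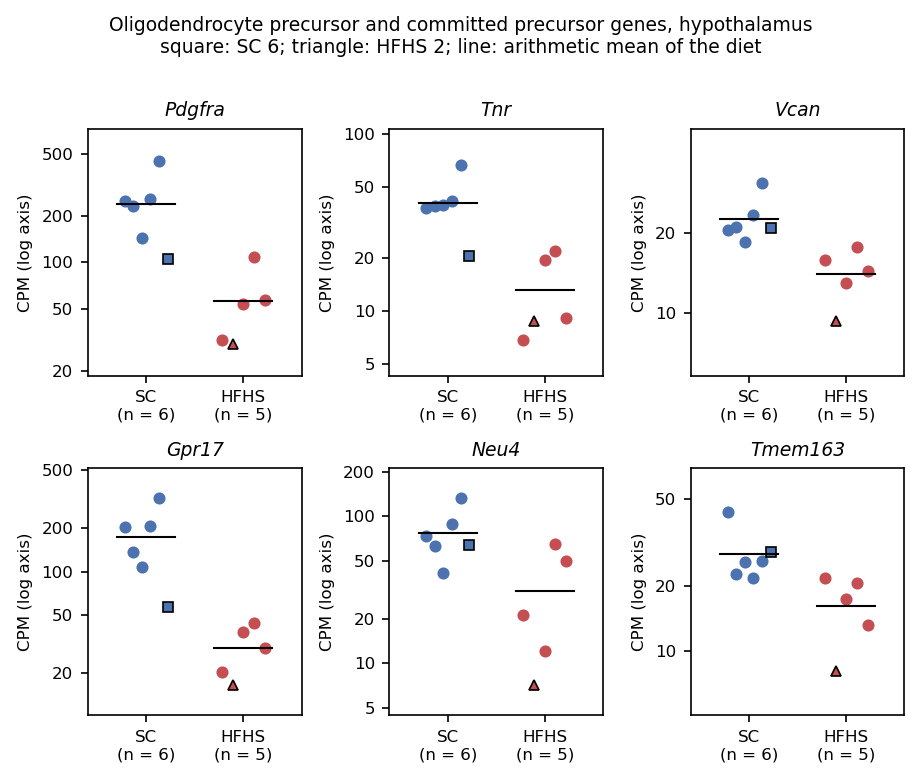
CPM of 3 precursor genes (Pdgfra, Tnr, Vcan) and 3 committed precursor genes (Gpr17, Neu4, Tmem163) in each hypothalamus library, on a log axis, with SC 6 as a square, HFHS 2 as a triangle and a line at the arithmetic mean of each diet. The diets do not overlap for Vcan, Gpr17 and Tmem163, and HFHS 4 is the HFHS library that reaches the SC range for Pdgfra and Tnr.

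Collagens, the fibrous and sheet-forming proteins of the extracellular matrix, were mostly at lower fitted levels on HFHS. Of 42 collagen genes tested, 12 were lower and 1 was higher at an unadjusted p under 0.05, and the median log2 fold change was −0.52; without HFHS 1, 7 were lower, without HFHS 2, 9, and without SC 6, 14. With the mean transcript length of each library as a covariate, 5 were lower and the median was −0.19; the fitted value of Col4a1 was then −0.85 and that of Col4a2 −0.53. Col11a2 and Col4a1 fell by DESeq2. Col11a2, a chain of the fibrillar collagen XI, was at 5.70, 7.99, 15.9, 7.61 and 7.31 CPM on HFHS and at 16.3, 29.9 and 43.8 CPM (lowest, median, highest) on SC. HFHS 3 lay close under the lowest SC library and the others far below it (−1.72 ± 0.30 SE; DESeq2 adjusted p 0.000102). Col4a1, a chain of the basement membrane collagen IV that surrounds vessels, was at 19.4, 27.4, 39.1, 33.6 and 17.9 CPM on HFHS and at 26.6, 76.3 and 88.4 CPM on SC. The lowest SC library fell among the HFHS values (−1.30 ± 0.30 SE; DESeq2 adjusted p 0.0248). Its partner chain gene Col4a2 had a fitted log2 fold change of −1.07. In the RefSeq annotation of GRCm38.p6 the pair lies head to head on chromosome 8, Col4a1 on the minus strand with its start at 11312826 and Col4a2 on the plus strand with its start at 11312805. The starts are 21 bases apart and each lies inside the other gene, so that the genes share only the stretch between them. The sequencing kit does not keep the strand. Col27a1, a fibrillar collagen, ranged from 3.64 to 13.2 CPM on HFHS and from 12.3 to 18.7 CPM on SC. The single collagen with the higher level at that threshold was Col8a1 (1.18).

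Markers of the vessel wall moved with the collagens in part. Of 11 endothelial genes 0 were higher and 1 was lower, with a median of −0.49 that was −0.23 without HFHS 2, −0.28 without SC 4 and −0.29 without SC 5. The lower one was Kdr, a receptor for vascular endothelial growth factor, at 18.3 to 23.9 CPM on HFHS and 17.8 to 60.2 CPM on SC. Of 10 mural cell genes 0 passed in either direction, with a median of −0.245 that was −0.01 without HFHS 2. Of 8 fibroblast genes 1 was lower, with a median of −0.04. The summed endothelial markers held 0.0345 to 0.121% of the counts on SC and 0.0120 to 0.0854% on HFHS. The part of vessel RNA in the collagen values was not tested.

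Several neuropeptide precursors were lower on HFHS, but the size of this depended on SC 6. The list of 23 hypothalamic neuropeptides had 20 genes with enough counts, of which 10 were lower and 0 higher at an unadjusted p under 0.05, with a median log2 fold change of −0.85. Without SC 6, 4 were lower and the median was −0.56. Without SC 6 and HFHS 2, 1 was lower and the median was −0.51. Pmch, the precursor of the orexigenic melanin-concentrating hormone, was at 11.6, 5.42, 8.77, 7.20 and 9.84 CPM on HFHS and at 4.89, 16.1 and 24.6 CPM (lowest, median, highest) on SC, with SC 6 highest. The groups overlapped (−0.89 ± 0.33 SE). Gal, which encodes galanin, was at 1.51, 1.27, 2.59, 4.94 and 2.30 CPM on HFHS and at 3.10, 4.46 and 11.3 CPM on SC, where SC 6 was again highest (−1.11 ± 0.42 SE), and Pdyn, the dynorphin precursor, had a value of −0.99 ± 0.38 (SE). The feeding peptides Agrp and Pomc, which act in opposite directions on food intake, had fitted values of −1.78 and −0.81, whereas Npy was at −0.13. Without SC 6 Pomc was at −0.52 and Npy at 0.14. Crh, Gnrh1 and Kiss1 had too few counts to test.

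General neuronal markers moved the same way. Of 13 neuron genes 4 were lower and 0 higher, with a median of −0.36, and the summed markers held 0.0243 to 0.0478% of the counts on SC and 0.0224 to 0.0362% on HFHS. Gad1, an enzyme that makes the transmitter GABA, was at 9.06, 6.76, 10.1, 15.8 and 19.3 CPM on HFHS and at 12.6, 24.4 and 27.2 CPM (lowest, median, highest) on SC. The paralogous Gad2 and the synaptic calcium sensor Syt1 had fitted values of −0.88 and −0.83. Among 10 genes of the secretory granule, Vgf, a granin-family precursor of neurons, fell by DESeq2: it was at 2.66, 2.53, 4.56, 4.74 and 6.07 CPM on HFHS and at 6.37, 10.3 and 20.4 CPM on SC, without overlap (−1.45 ± 0.33 SE; DESeq2 adjusted p 0.01005). Pcsk1, a protease that cuts peptide precursors, had a value of −1.41 and Scg2, a granin, of −0.71. In the opposite direction, Cpe (0.76, and 0.39 without HFHS 2) and Scg3 (0.71, and 0.36), granule genes that astrocytes express too, were higher at an unadjusted p under 0.05; without HFHS 2, 0 members of the list were. With transcript length as a covariate Pcsk1 was at −0.79, and 1 member was higher and 1 lower. Of 13 transcription factors of hypothalamic neurons tested, 1 was lower and 0 were higher. How far the level of neuronal RNA carried by the sort accounts for the neuropeptide values was not tested.

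**Figure D3:**
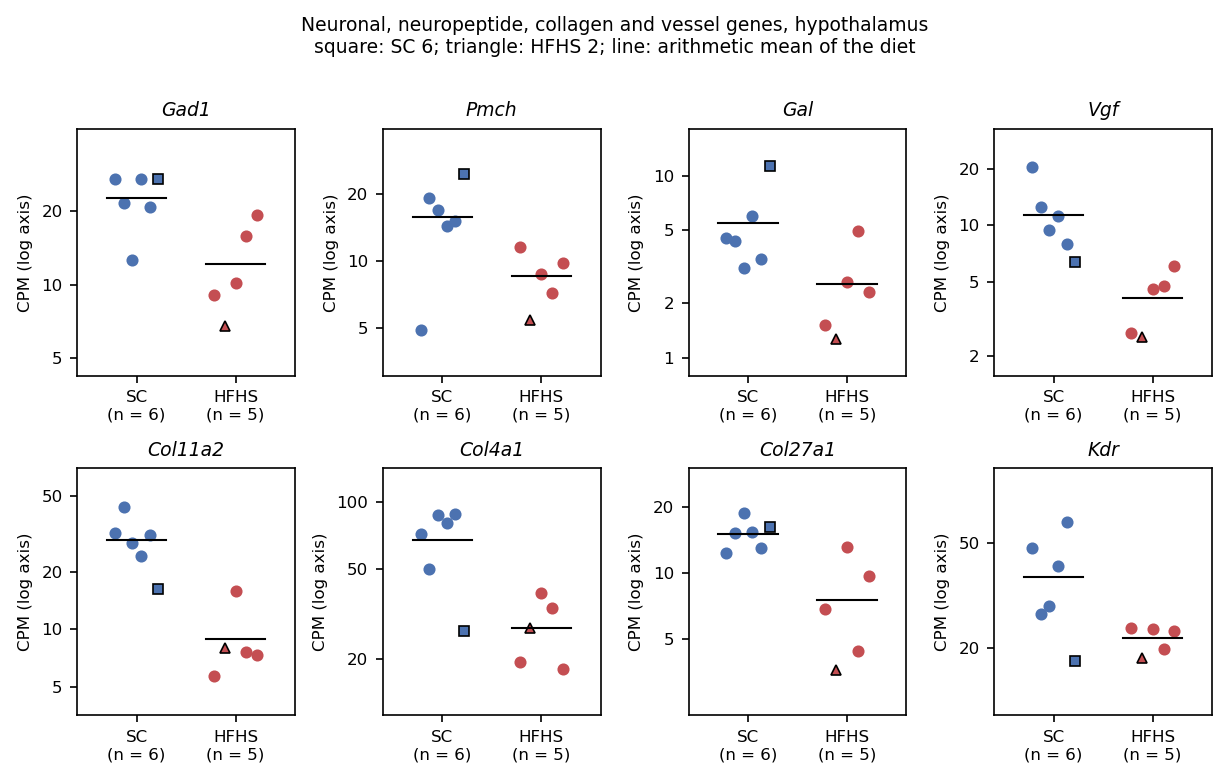
CPM of the neuronal genes Gad1, Pmch, Gal and Vgf and of the matrix and vessel genes Col11a2, Col4a1, Col27a1 and Kdr in each hypothalamus library, on a log axis, with SC 6 as a square, HFHS 2 as a triangle and a line at the arithmetic mean of each diet. Vgf and Col11a2 separate the diets, while Pmch and Gal overlap and have SC 6 as their highest SC library.

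Astrocyte genes were higher on HFHS mainly through 1 library. At an unadjusted p under 0.05, 12 of the 19 markers were higher and 0 lower, with a median log2 fold change of 0.84; without HFHS 2 the count was 2 and the median 0.28, and without HFHS 2 and SC 6 the count was 5 and the median 0.27. Aldh1l1, a folate enzyme used as a general astrocyte marker, was at 147, 525, 131, 125 and 154 CPM on HFHS and at 64.2, 96.3 and 124 CPM (lowest, median, highest) on SC. The diets did not overlap, though HFHS 4 exceeded the highest SC library by less than 1 CPM. Gjb6, the gap junction protein connexin 30, was at 331, 1204, 161, 193 and 311 CPM on HFHS against 72.8, 162 and 243 CPM on SC, with 2 HFHS libraries inside the SC range. Atp1b2, whose product the sort captures, was at 399, 2064, 449, 657 and 279 CPM on HFHS against 336, 528 and 656 CPM on SC. Its fitted value was 0.63 with all libraries and −0.16 without HFHS 2.

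Functions that astrocytes carry followed the same pattern. Of 11 genes for glutamate handling 5 were higher and 1 lower, with 0 higher without HFHS 2, where the median was 0.22 in place of 0.35. The lower gene was Grm5, the metabotropic glutamate receptor 5, which fell by DESeq2: it was at 5.88, 4.15, 6.34, 4.53 and 7.01 CPM on HFHS and at 7.95, 10.5 and 19.0 CPM on SC, without overlap (−1.05 ± 0.26 SE; DESeq2 adjusted p 0.0286). Slc1a3, the glutamate transporter GLAST, was at 5201 CPM in HFHS 2 and between 1015 and 1474 CPM in the other HFHS libraries, against 639 to 1408 CPM on SC. Of 11 genes for GABA handling 3 were higher, among them the receptor subunits Gabrg1 and Gabrb1, and 0 were without HFHS 2; 5 were higher without HFHS 1 or without HFHS 5, and 7 with transcript length as a covariate. Of 14 genes for endfeet and potassium 4 were higher, 1 without HFHS 2, 2 without SC 3 and 7 without HFHS 3, with a median of 0.62 that was 0.13 without HFHS 2. Reactive astrocyte genes had a median of 0.01 over 28 genes. Gfap, the intermediate filament protein of reactive astrocytes, was at 112, 407, 170.5, 289 and 228 CPM on HFHS and at 56.6, 148 and 187 CPM on SC, overlapping. Osmr, the oncostatin M receptor, and B3gnt5, a glycosyltransferase, had lower fitted levels (−1.19 and −1.52). In that list 2 genes were higher and 4 lower; leaving out SC 5 or HFHS 5, or adding transcript length as a covariate, left 1 lower, and leaving out SC 4, HFHS 1 or HFHS 2 left 2.

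Other cells that line the ventricle and patrol the tissue were also read from their markers. Of 12 tanycyte genes tested 3 were higher and 0 lower, with a median of 0.27 that was 0.17 without SC 1 and 0.46 without SC 2. Crym, which binds thyroid hormone in the cytosol, was at 24.6, 30.6, 28.7, 31.7 and 30.6 CPM on HFHS and at 7.14, 13.7 and 23.3 CPM (lowest, median, highest) on SC. The groups did not overlap and the HFHS libraries lay close together (0.97 ± 0.28 SE; DESeq2 adjusted p 0.0901). Gpr50, an orphan receptor of tanycytes, ranged from 88.8 to 102.9 CPM on HFHS and from 25.8 to 99.98 CPM on SC (0.74 ± 0.27 SE). Frzb, a secreted Wnt antagonist, had a value of 0.58. Of 12 genes of ciliated ependymal cells 0 were higher and 1 lower.

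Choroid plexus RNA was unevenly spread over the libraries. The 8 marker genes held 0.00754 to 0.0760% of the counts on SC and 0.00896 to 0.331% on HFHS. Sostdc1, a secreted BMP antagonist of the choroid plexus, was at 62.0, 33.9 and 14.2 CPM in HFHS 3, 4 and 5 but at 2.25 and 2.04 CPM in HFHS 1 and 2, and at 15.4 CPM in SC 3 against 2.13 to 4.15 CPM in the other SC libraries. High values thus sat in 3 of 5 HFHS libraries and 1 of 6 SC libraries. The list had 3 genes higher and a median of 2.28, with 7 higher without SC 3, HFHS 1 or HFHS 2, and a median of 1.17 without HFHS 3. Otx2, a homeobox factor of the plexus, separated the diets (19.8 to 29.7 CPM on HFHS and 11.5 to 19.3 CPM on SC).

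For 14 microglial genes the median log2 fold change was 0.36 and 0 passed an unadjusted p of 0.05. SC 6 had the highest sum of them on SC: without it 5 were higher and the median was 0.62, and without SC 6 and HFHS 2, 8 were higher and the median was 0.79, whereas without HFHS 3 the median was 0.15. Tmem119, a microglial surface protein, was at 68.3, 23.2, 70.6, 36.8 and 44.0 CPM on HFHS and at 13.4, 34.2 and 54.0 CPM (lowest, median, highest) on SC. The groups overlapped. Of 21 inflammatory genes 4 were higher and 0 lower, with 2 higher without HFHS 1 or without HFHS 3. Il1b, the cytokine interleukin-1 beta, was at 61.4, 12.7, 49.96, 11.5 and 27.2 CPM on HFHS and at 6.25, 13.4 and 22.6 CPM on SC, so that HFHS 1, 3 and 5 exceeded every SC library and HFHS 2 and 4 did not. HFHS 1 and 3 were also the libraries with most Tmem119. Myd88, the adaptor of Toll-like receptors, had a value of 0.45 ± 0.15 (SE) and Vcam1, an adhesion protein, of 0.96 ± 0.36 (SE), or 0.40 without HFHS 2. With transcript length as a covariate 2 of the list were higher. Of 21 interferon and antigen presentation genes 1 was higher and 0 lower, with 2 higher without HFHS 2 and 5 higher and 1 lower without SC 6. Without SC 6 and HFHS 2, 9 were higher and 1 lower. Their median was 0.17, against 0.39 without both libraries and 0.01 with transcript length as a covariate. The part of microglial RNA in these values was not tested.

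Genes of fat oxidation were higher on HFHS more often than not, and a few rose by DESeq2. Of 27 fatty acid oxidation genes 9 were higher and 0 lower at an unadjusted p under 0.05, and the median fold change was 0.35 on the log2 scale. The count was 3 and the median 0.19 without HFHS 2, and the count was 15 without SC 6. Acaa2, the mitochondrial thiolase that ends each round of beta-oxidation, was at 135, 231, 137, 142.5 and 127 CPM on HFHS and at 68.4, 91.2 and 116 CPM (lowest, median, highest) on SC. All HFHS libraries were above all SC libraries, also apart from HFHS 2 (0.74 ± 0.18 SE; DESeq2 adjusted p 0.0379). Acadl, the long-chain acyl-CoA dehydrogenase, was at 160.2, 249.9, 137, 121 and 142 CPM on HFHS against 82.2, 93.0 and 122.5 CPM on SC, with HFHS 4 just inside the SC range (0.74 ± 0.19 SE; DESeq2 adjusted p 0.0484). Etfdh, which passes electrons from acyl-CoA dehydrogenases to ubiquinone, had a value of 0.39 ± 0.13 (SE).

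PPAR receptors and their targets, the nuclear receptor programme that fatty acids switch on, had 7 of 19 tested genes higher and 0 lower, with 4 higher without HFHS 2 (median 0.36, and 0.18 without it). Ucp3, a mitochondrial uncoupling protein, rose by DESeq2: it was at 11.8, 32.2, 8.09, 8.30 and 10.2 CPM on HFHS and at 2.68, 4.82 and 7.93 CPM on SC. HFHS 3 and 4 lay just above the highest SC library (1.45 ± 0.39 SE; DESeq2 adjusted p 0.0496; 0.90 without HFHS 2). Angptl4, an inhibitor of lipoprotein lipase, was high in HFHS 1 and 2 (44.1 and 88.9 CPM), while HFHS 3, 4 and 5, at 19.2 to 22.6 CPM, lay within the SC range of 12.9 to 22.95 CPM. Ppara itself had a fitted value of 0.93 and Ppargc1a, its coactivator, of 0.59; without HFHS 2 these were 0.30 and 0.28.

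Lipid synthesis was less uniform. Of 15 fatty acid synthesis genes 5 were higher, none by DESeq2: the desaturases Fads2 and Scd1, the elongases Elovl2 and Elovl5, and Me1, which supplies NADPH. Fasn, Acaca and Acly, which build the fatty acid chain, had fitted values of −0.47, −0.29 and −0.20. Without HFHS 2 Fasn was at −0.71 and Acly at −0.46, and with transcript length as a covariate Fasn was at 0.25 and Acly at 0.06. The higher count was 0 without HFHS 2, 2 without SC 3 and 3 without SC 1 or SC 4. Of 23 cholesterol synthesis genes 4 were higher and the median was 0.24; 0 were higher without HFHS 2, SC 2 or SC 3 and 1 without SC 4 or SC 5. Idi1, an isomerase of the isoprenoid steps, was at 73.6 to 92.0 CPM in 4 HFHS libraries and at 139 CPM in HFHS 2, against 49.5 to 81.8 CPM on SC. Of 14 lipoprotein and LXR genes 4 were higher, 2 without HFHS 2, and the median was 0.00. Apoe, the main lipid carrier that astrocytes secrete, was at 7892, 14427, 6567, 6722 and 7033 CPM on HFHS and at 4512, 5015 and 7596 CPM on SC, where SC 6 was highest. Mylip, an LXR target that degrades the LDL receptor, separated the diets at lower levels, with 12.3 to 18.8 CPM on HFHS and 6.53 to 12.1 CPM on SC (0.64 ± 0.21 SE; DESeq2 adjusted p 0.147).

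Glycolytic enzymes had higher fitted levels on HFHS, with 11 of 25 genes higher and 0 lower and a median log2 fold change of 0.32. The count was 4 and the median 0.17 without HFHS 2, and the count was 7 without SC 1, SC 2, SC 4 or SC 5, as it was with transcript length as a covariate. DESeq2 called none of them, and Gpi1, Ldha and Pfkm had groups that did not overlap. Ldha, the lactate dehydrogenase subunit that favours lactate formation, was at 277, 404, 232, 238 and 260 CPM on HFHS and at 167, 194 and 227 CPM (lowest, median, highest) on SC. All HFHS libraries were above all SC libraries (0.54 ± 0.16 SE; DESeq2 adjusted p 0.115). Gapdh, often used as a reference gene, was at 1621, 2747, 2129, 1356 and 1238 CPM on HFHS and at 938, 1048 and 1464 CPM on SC, where SC 6 was highest. Its groups overlapped (0.73 ± 0.22 SE). The glucose transporter gene Slc2a1 and the lactate carriers Slc16a1, Slc16a3 and Slc16a7 had fitted values from −0.42 to −0.02. Of 13 glycogen genes 4 were higher, 1 without HFHS 2 and 2 without SC 3 or SC 5. Pygm, the glycogen phosphorylase that astrocytes share with muscle, was at 354 CPM in HFHS 2 and at 82.1 to 93.6 CPM in the other HFHS libraries, against 46.4 to 84.8 CPM on SC.

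Lysosomal genes were higher on HFHS by small amounts. Of 21 genes 8 were higher and 0 lower, and the median log2 value was 0.26; the count was 5 without HFHS 2, SC 2, SC 3 or SC 4 and with transcript length as a covariate, and the median 0.11 without HFHS 2. Ctsd and Hexa rose by DESeq2. Ctsd, the aspartic protease cathepsin D, was at 1119, 1163, 1136, 1004 and 960 CPM on HFHS and at 688, 781 and 912 CPM (lowest, median, highest) on SC. The groups did not overlap and HFHS 2 did not stand out (0.44 ± 0.14 SE; DESeq2 adjusted p 0.0327). Hexa, a subunit of the hexosaminidase that degrades gangliosides, was at 134.3, 134.4, 132.7, 102.8 and 124.5 CPM on HFHS against 90.3, 93.6 and 104.3 CPM on SC, where HFHS 4 fell inside the SC range (0.39 ± 0.12 SE; DESeq2 adjusted p 0.0300). Ctsz, another cathepsin, had a value of 0.46 ± 0.14 (SE), and Ctsl, Grn, Lamp2, Npc2 and Psap were the remaining members with higher levels at the unadjusted threshold.

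Ctsd and Ldha are shown with their promoters as examples. Each was higher in every HFHS library than in every SC library, and each carries the E-box CACGTG. That motif is known to be bound by TFEB at lysosomal genes and by clock and MYC factors at other genes. Pfkm met both conditions as well and is not shown. The 250 bases before each RefSeq start (GRCm38.p6) are printed 5′ to 3′ on the strand of the gene, with CACGTG in capitals. They are chr7:142387828-142388077 on the minus strand for Ctsd and chr7:46845554-46845803 on the plus strand for Ldha.
Ctsd: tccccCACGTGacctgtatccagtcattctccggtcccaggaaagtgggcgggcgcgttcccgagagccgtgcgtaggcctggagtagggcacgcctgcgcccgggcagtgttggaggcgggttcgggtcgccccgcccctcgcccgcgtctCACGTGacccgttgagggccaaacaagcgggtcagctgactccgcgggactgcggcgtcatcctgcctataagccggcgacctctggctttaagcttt
Ldha: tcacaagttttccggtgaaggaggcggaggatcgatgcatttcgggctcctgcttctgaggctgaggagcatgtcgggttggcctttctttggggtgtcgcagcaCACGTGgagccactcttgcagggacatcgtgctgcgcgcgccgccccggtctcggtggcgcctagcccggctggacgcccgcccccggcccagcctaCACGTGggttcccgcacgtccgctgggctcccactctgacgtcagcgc
Ctsd holds the motif 245 and 98 bases before its start, and Ldha 145 and 48 bases before. CACGTG reads the same on both strands. It occurred for 1854 of the 27025 genes with a promoter of this length in the RefSeq table (6.86%), in 6 of 17 lysosomal genes with a promoter there (35.3%; Ctsa, Ctsd, Ctsl, Lamp1, Gaa and Mcoln1) and in 4 of 24 glycolysis and lactate genes (16.7%; Pfkm, Ldha, Slc16a1 and Pfkfb3). It also occurred in 5 of 16 clock genes (31.25%). Among the 6 lysosomal genes only Ctsd and Ctsl had higher levels at the unadjusted threshold. Ctsa and Lamp1 did not pass it, and Gaa and Mcoln1 had fitted values of −0.01 and −0.26.

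Antioxidant genes had 5 of 23 members higher and 0 lower, 3 without HFHS 2, 8 without SC 6 and 2 with transcript length as a covariate. Nqo1, a quinone reductase under the control of NRF2, rose by DESeq2 and was at 29.8, 33.8, 24.6, 33.6 and 29.8 CPM on HFHS against 17.0, 19.2 and 24.3 CPM (lowest, median, highest) on SC. HFHS 3 exceeded the highest SC library only slightly (0.61 ± 0.14 SE; DESeq2 adjusted p 0.00667). Nfe2l2, the gene of NRF2, separated the diets too, at 114, 109.8, 73.7, 79.0 and 82.1 CPM on HFHS and 59.5, 66.6 and 70.1 CPM on SC (0.49 ± 0.14 SE; DESeq2 adjusted p 0.0901). Prdx6, a peroxiredoxin of astrocytes, had a value of 0.56, while the NRF2 targets Gclc, Gclm, Srxn1 and Txnrd1 had values between −0.01 and 0.19.

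Among 21 targets of the stress factor ATF4, 2 were higher and 1 lower, with a median of 0.17. The lower one was Aldh1l2, the mitochondrial counterpart of Aldh1l1 in folate metabolism, which fell by DESeq2 and, without SC 6, by edgeR. It was at 3.66, 4.80, 5.15, 3.76 and 4.83 CPM on HFHS and at 6.46, 11.7 and 18.1 CPM (lowest, median, highest) on SC, without overlap (−1.41 ± 0.26 SE; DESeq2 adjusted p 0.000209). Its neighbours in serine and folate metabolism did not share that value: Phgdh was at 0.48 (0.31 without HFHS 2), Shmt2 at −0.09 and Mthfd2 at 0.03. Of 20 chaperone genes of the endoplasmic reticulum 0 differed at an unadjusted p under 0.05, and 4 were lower without SC 6. Of 9 metallothionein and zinc genes 1 was higher, 0 without HFHS 2 and 2 without HFHS 4 or HFHS 5. Immediate early genes, which tissue dissociation is known to induce, had 3 of 21 members lower (Fosb, Jund and Nr4a1) and 0 higher. The median was −0.20. The count was 0 without SC 6 or HFHS 2 and 1 without SC 2, SC 3, SC 4 or HFHS 3, whereas with transcript length as a covariate it was 6 and the median −0.48.

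**Figure D4:**
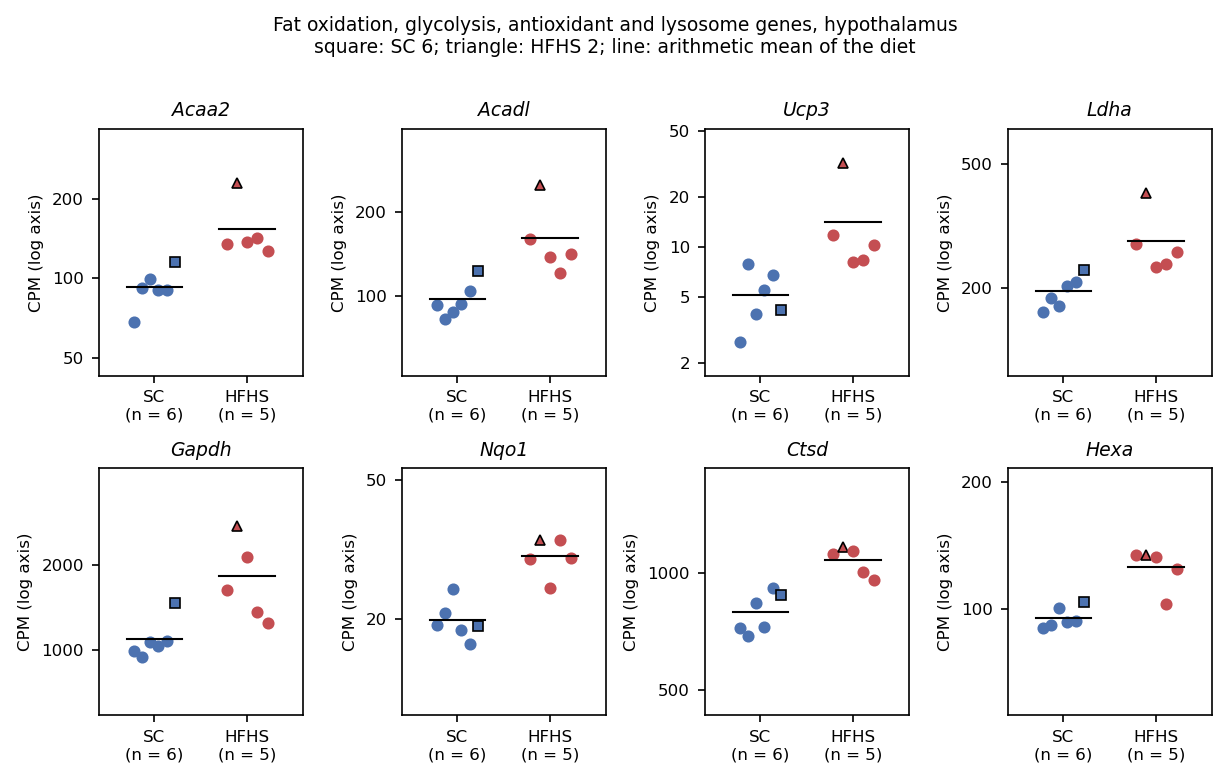
CPM of fat oxidation genes (Acaa2, Acadl, Ucp3), glycolytic genes (Ldha, Gapdh), the NRF2 target Nqo1 and lysosomal genes (Ctsd, Hexa) in each hypothalamus library, on a log axis, with SC 6 as a square, HFHS 2 as a triangle and a line at the arithmetic mean of each diet. The diets do not overlap for Acaa2, Ucp3, Ldha, Nqo1 and Ctsd, and HFHS 2 is the highest library for all 8 genes, by small margins for Nqo1, Ctsd and Hexa.

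Components of leptin and insulin signalling had 0 of 21 genes past the unadjusted threshold, with a median of −0.01. With transcript length as a covariate 4 were higher and the median was 0.13, and without SC 6 and HFHS 2, 1 was higher and 2 were lower. Lepr, the leptin receptor, was barely detected, at 0.664, 0.741, 5.71, 2.72 and 2.64 CPM on HFHS and at 0.460, 1.08 and 2.54 CPM (lowest, median, highest) on SC. HFHS 3, 4 and 5 were the higher libraries, the same 3 that were high for Sostdc1. Insr, the insulin receptor, was at 40.5 CPM in HFHS 3 and at 13.6 to 19.3 CPM in the other HFHS libraries, against 8.17 to 22.0 CPM on SC. Of 14 receptors for feeding signals tested 3 were higher and 1 lower, with 1 higher without HFHS 2. Adipor2, a receptor for adiponectin, had a value of 0.59 ± 0.22 (SE), Ntrk2, the receptor for BDNF, of 0.73 ± 0.28 (SE; 0.32 without HFHS 2) and Cnr1, the cannabinoid receptor CB1, of −0.99. The melanocortin receptor genes Mc3r and Mc4r and the ghrelin receptor gene Ghsr had too few counts to test.

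Some hormone-responsive and clock genes had higher fitted levels on HFHS, with HFHS 2 the highest library for Klf9, Tsc22d3, Dbp and Rora. Of 15 glucocorticoid genes 5 were higher and 0 lower; 2 were without HFHS 2, and 3 without SC 1 or SC 3. Klf9, a transcription factor that both glucocorticoid and thyroid hormone induce, was at 124, 165.5, 141, 145 and 122 CPM on HFHS and at 58.3, 85.8 and 138 CPM (lowest, median, highest) on SC. Tsc22d3, the glucocorticoid-induced leucine zipper, was at 571 and 824 CPM in HFHS 1 and 2 and at 306.5 to 358 CPM in the other HFHS libraries, inside the SC range of 194 to 399 CPM. Fkbp5 and Sgk1, also classical targets, had values of 0.22 and 0.07, and Fkbp5 of −0.08 with transcript length as a covariate. Of 10 thyroid hormone genes 2 were higher, Crym and Klf9. Clock genes had 3 of 18 members higher and 0 lower, and 5 without SC 2 or without HFHS 3. They were Dbp, Nr1d1 and Rora, with values of 0.66, 0.66 and 0.58. Without HFHS 2 Dbp was at 0.42, and the median of the clock list was 0.02 in place of 0.14. Rora, a nuclear receptor that activates Arntl, was at 86.0, 134, 83.0, 91.7 and 89.4 CPM on HFHS and at 57.7, 62.0 and 74.4 CPM on SC, without overlap. Arntl and Clock had values of 0.08 and −0.46, and of 0.04 and −0.08 with transcript length as a covariate. The time of day at which the animals were killed is not given in the sources used here.

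Genes of secreted factors that shape synapses and of the matrix between neurons, not all of them astrocyte products, had 2 of 18 members higher and 3 lower, with 1 higher without HFHS 2. Sparc, a collagen-binding matrix protein, was at 2979, 7783, 2210, 2806 and 2826 CPM on HFHS and at 1105, 1646 and 3118 CPM (lowest, median, highest) on SC, where SC 6 was highest. Acan, the aggrecan core of perineuronal nets, was at 0.0695 to 1.18 CPM on HFHS and at 0.614 to 4.86 CPM on SC (−2.09 ± 0.68 SE), and Hapln3, a hyaluronan link protein, had a value of −0.83. Of 81 nuclear genes of the respiratory chain 7 were higher and 0 lower at the unadjusted threshold, with a median of 0.15. Leaving out 1 library moved that count between 2 (without SC 2 or SC 4) and 12 (without SC 6): it was 3 without SC 3 or HFHS 2, 4 without SC 1 or SC 5 and 11 without HFHS 4. With transcript length as a covariate it was 3. The 13 mitochondrially encoded genes had a median of 0.41 and 0 passed, and 80 ribosomal protein genes had a median of 0.17 and 0 passed.

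A second view asked whether the diets used different transcripts of a gene. For each transcript its TPM was set against the TPM of the gene's other transcripts, and limma tested the log2 ratio. Of 25179 transcripts, 0 passed an adjusted p of 0.05 (0.0%), 1270 had an unadjusted p under 0.05 (5.04%) and 121 (0.481%) had shares that did not overlap between the diets. An edgeR test of exon-like usage on transcript counts (diffSpliceDGE) called 12 of 24581 transcripts, 8 with the higher and 4 with the lower share on HFHS. Each of the 8 was estimated at 0 in every SC library and also at 0 in at least 1 HFHS library, so that its groups overlapped. Leaving out 1 library gave 0 to 3 limma calls, 3 without HFHS 4 and 1 each without SC 3, SC 5, SC 6 or HFHS 5. The 6 transcripts named here had the smallest limma p among those whose mean share differed by at least 10 percentage points.

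Ptpn5, the striatum-enriched phosphatase STEP of neurons, had a larger share of its transcript Ptpn5-202 (chr7:47077795-47133684, minus strand, GRCm38; protein coding). It was 30.3, 46.5, 35.6, 31.8 and 25.6% of the gene's TPM on HFHS and 11.4, 12.7 and 18.7% (lowest, median, highest) on SC. The diets did not overlap, while the gene's mean TPM was 7.25 on HFHS and 12.1 on SC (limma adjusted p 0.720). Hus1-203 (chr11:8993137-9011160, minus strand), annotated as a target of nonsense-mediated decay from the Hus1 gene of the DNA damage checkpoint, made up 4.61 to 23.5% on SC and at most 1.53% on HFHS. It was the one of the 6 with separate groups that diffSpliceDGE also called (adjusted p 0.0311). Dgkq-211 (chr5:108653493-108655133, minus strand), a retained intron transcript of a diacylglycerol kinase gene, made up 9.14 to 25.1% on SC and was listed at 0 in 4 HFHS libraries and at 5.32% in HFHS 3. The libraries' whole share of TPM in retained intron transcripts was 2.66 to 4.70% on SC and 2.65 to 3.77% on HFHS.

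Nfatc1-206, a protein coding transcript of the calcineurin-dependent factor Nfatc1, made up 6.24 to 19.9% on SC and 0 to 3.67% on HFHS. Shisal1-203 (chr15:84380047-84446545, minus strand) was listed at 0 in all 5 HFHS libraries and in SC 6, and at 12.5 to 28.9% in the other SC libraries; diffSpliceDGE called it with all libraries (adjusted p 0.00131) and limma without SC 6 (adjusted p 0.00870). Taf11-204 (chr17:27903321-27903485, minus strand), a short processed transcript of a TFIID subunit gene, was listed at 0 on HFHS and in SC 3 and at 9.21 to 24.5% in the other SC libraries. A value of 0 here is an estimate by Salmon, which divides reads among transcripts that share exons, and each of these transcripts was at 8.48 TPM or less in every library.

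**Figure D5:**
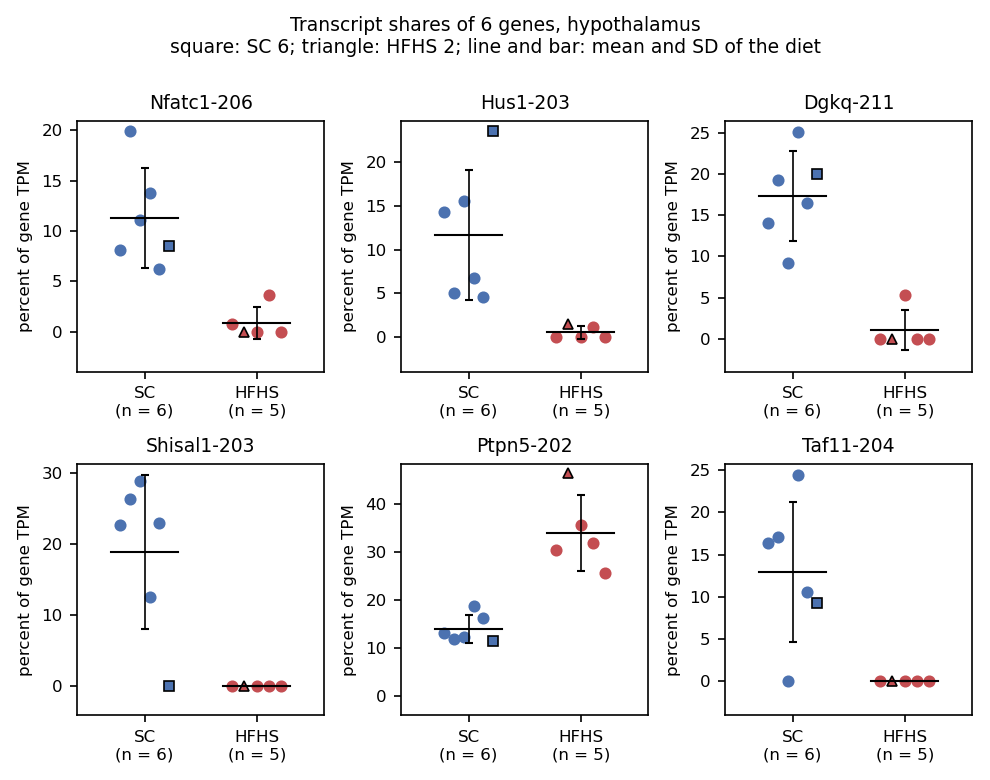
Share of the gene's TPM (percent) of Nfatc1-206, Hus1-203, Dgkq-211, Shisal1-203, Ptpn5-202 and Taf11-204 in each hypothalamus library, with the mean and SD of each diet and with SC 6 as a square and HFHS 2 as a triangle. Ptpn5-202 is the transcript with the higher share on HFHS, 25.6 to 46.5% against 11.4 to 18.7%, and the SC value of Shisal1-203 at 0 is SC 6.

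Whether the diet difference was larger or smaller in the hypothalamus than elsewhere was tested as an interaction in 1 edgeR fit of all 35 libraries. Against the hippocampus 0 of 21574 genes passed an adjusted p of 0.05 (0.0%); 226 genes (1.05%) had the more positive and 207 (0.959%) the more negative diet value in the hypothalamus at an unadjusted p under 0.05. Against the cortex 0 passed as well (0.0%), with 1319 (6.11%) and 1177 (5.46%) at the unadjusted threshold. DESeq2 called 4 interactions against the hippocampus and 131 against the cortex, where limma-voom called 591. The cortex libraries were sorted on another type of magnetic column than those of the other regions, so that region and column cannot be told apart in that comparison.

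In the hippocampus precursor genes also tended to lower values. Over all 21574 genes in that region, 461 were lower and 292 higher on HFHS at an unadjusted p under 0.05, with a median of 0.03. Hippocampus list counts are to be read against these. There, 5 of the 11 were lower on HFHS at an unadjusted p under 0.05 with a median log2 fold change of −0.92, and the interaction was below 0 for 8 of 11 genes, 1 of them at an unadjusted p under 0.05, with a median of −0.12. Against the cortex it was below 0 for 10 of 11 genes, 3 of them at that threshold, with a median of −0.64. Gpr17 differed between hypothalamus and cortex by −2.99 on the log2 scale (edgeR unadjusted interaction p 8.76e-05), and Kdelr1 by 1.505 (6.91e-06). With CPM scaled over all 35 libraries, Gpr17 had means of 2.91 on SC and 4.00 on HFHS in the cortex, against 155.7 and 27.0 in the hypothalamus. Kdelr1 had a diet value of −0.86 in the cortex beside 0.63 in the hypothalamus. Oprl1 had a more negative value in the hypothalamus than in the hippocampus, by −1.68 (0.000894), as had Col27a1, by −1.84 (0.000536). In the hippocampus Oprl1 had means of 2.99 and 3.57 CPM and Col27a1 of 3.20 and 5.83 CPM on SC and HFHS. None of these interactions passed the adjustment over all genes with edgeR. Collagen interactions against the cortex were below 0 for 31 of 43 genes, with a median of −0.79, and 8 were below and 1 above 0 at an unadjusted p under 0.05. Against the hippocampus they were below 0 for 20 of 43, with a median of 0.11, and 2 were below and 1 above 0 at that threshold; in the hippocampus itself 7 of 43 collagens were lower and 1 higher, with a median of −0.46. Astrocyte markers had interactions above 0 for 18 of 19 genes against the cortex, 3 at the unadjusted threshold, and for 17 of 19 against the hippocampus, 0 at that threshold. Neuropeptides had interactions below 0 for 19 of 22 genes against the hippocampus, 3 of them at the threshold. Against the cortex they were below 0 for 18 of 22, 2 of them at the threshold. Of all 21574 genes, 11534 were above 0 and 10039 below against the cortex. Against the hippocampus 10463 were above and 11111 below. Within the hypothalamus the astrocyte values rested mainly on HFHS 2 and the neuropeptide values in part on 1 SC library, as given above. How far the interactions of these lists depend on those libraries was not tested.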

How the data were processed

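RNA from ACSA2-sorted pools was amplified with SMART-Seq v4 Ultra Low Input, which does not mark strand, per the labels' protocols. The authors' deposited values were Salmon's estimated counts and TPM per transcript; Salmon, FastQC and GRCm38 are named in the submitters' processing notes, with no versions stated. Of 140948 transcripts, 139852 matched GENCODE M21 by identifier and were summed to 54119 genes; the 1096 others held 0.308 to 0.535% of the counts and were left out. Sums were rounded to whole counts. Depth limits genes of a few counts, where folds are imprecise.

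The 11 hypothalamus libraries were fitted alone with edgeR 4.0.16 (R 4.3.3; filterByExpr, TMM, robust quasi-likelihood test, Benjamini-Hochberg adjustment). CPM values carry TMM factors. Transcript ratios, log2 with 0.1 TPM added, were tested with limma 3.58.1 for genes of at least 5 TPM and shares of 5 to 95%. Interactions used all 35 libraries. DESeq2 1.42.0, voom, other scalings and filters, a replicate block and leaving out each library were alternatives. Scripts were tested on simulated data.

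Named genes were the 10 with the smallest p in each direction at a mean log2 CPM of at least 3 (no clone or predicted names), up to 3 members of smallest p per list at a mean of at least 1 CPM, Atp1b2, Gfap, Aqp4 and 6 transcripts. Members and lists were chosen with earlier results of these data known. 12 lists are given mainly by counts; a few genes beside these, chosen after their values were seen, are given by fitted value only. 1 gene that the rule selects is not reported here.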

Additional observations from a re-analysis of the deposited data

Results flagged for a closer look

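A library is listed here when its gap to the nearest library of its diet was large against the range of that diet (Dixon's test at the 95% level). This was examined in 240 sets of values of 1 diet, where chance gives about 1 in 20. It was found in 52, of which 32 were in HFHS 2, 6 in SC 6 and 4 in HFHS 3.

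HFHS 2, the library with the largest astrocyte share of counts, was the highest HFHS library each time. Genes of astrocytes and of their transport and receptor functions were, in CPM, Sparc (7783), Slc1a3 (5201), Ntrk2 (2736), Atp1b2 (2064), Acsbg1 (1694), Slc1a2 (1391), Gjb6 (1204), Aldh1l1 (525), Scg3 (389), Gabrg1 (359), Maob (241), Kcnk1 (204), Cntfr (201) and Gabrb1 (145). Lipid genes were Apoe (14430), Fads2 (1693), Acaa2 (231), Fdft1 (195), Lcat (140.3), Idi1 (139), Elovl2 (122), Ttpa (35.1) and Ucp3 (32.1). Genes of glucose and glycogen were Pfkm (539), Ldha (404), Pygm (354) and Ppp1r3d (29). The others were Vcam1 (309), Fbln5 (289.9), Rora (134), Dbp (130.4) and Kdelr1 (49.5). In the next highest HFHS library Slc1a3 was at 1474 CPM, Atp1b2 at 657 CPM and Pygm at 93.6 CPM.

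SC 6 was the highest SC library for Apoe (7596 CPM), Sparc (3118 CPM), Gapdh (1463 CPM) and Gal (11.3 CPM), and the lowest for Hap1 (80.9 CPM) and for mean transcript length (2484 bases). HFHS 3 was highest for Col11a2 (15.9 CPM), Insr (40.5 CPM), Itgam (40.6 CPM), a microglial integrin, and the share of Dgkq-211 (5.32%). HFHS 4 was highest for Pcsk1 (3.99 CPM) and the share of Nfatc1-206 (3.67%).

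Among the other SC libraries, SC 1 was highest for Elovl5 (356.9 CPM) and Tmem163 (43.6 CPM) and lowest for Fosb (10.3 CPM). SC 2 was highest for Mapk4 (53.1 CPM) and Slc7a11 (62.3 CPM). SC 3 was highest for Sostdc1 (15.4 CPM) and lowest for Idi1 (49.5 CPM), and SC 5 was highest for Tank (26.8 CPM).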

How the results depend on the processing

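Depth and pool number limit what could be seen: genes of a few CPM, among them Lepr and most neuropeptides, are imprecise. The number of genes called for diet in the hypothalamus, 0 with edgeR, was 115 with DESeq2, 2 with voom, 1 in the fit of all 6 groups and 0 to 8 when 1 library was left out (8 without SC 6). Other scalings, filters, a transcript length covariate and the length-scaled summary called 0. Transcript shares, 0 with limma, gave 12 calls with diffSpliceDGE and 0 to 3 when 1 library was left out. Interactions against the hippocampus, 0 with edgeR, were 4 with DESeq2; against the cortex they were 591 with voom, 131 with DESeq2, 813 with the replicate block and 0 to 1 when 1 library was left out (1 without HFHS 3). The cause of these differences was not tested.

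Replicate numbers were not taken to pair the pools. Within the hypothalamus the correlations of same-numbered SC and HFHS libraries were 0.0382, 0.0779, 0.141, 0.0380 and 0.0199, and not every library correlated best with its own number. Between same-numbered hypothalamus and cortex libraries of a diet, which the block of the interaction joins, the correlation ranged from −0.0348 to 0.224 over 11 pairs, with 3 over 0.1, and 4 of the 11 hypothalamus libraries correlated best with their own number. Against the hippocampus it ranged from −0.0642 to 0.364 over 10 pairs, with 3 over 0.1 and 5 best with their own. The value of 0.364 was that of HFHS 2. How many own-number matches chance would give was not computed. Whether same-numbered libraries of different regions share animals was not tested. The replicate block called 0 genes for diet in the hypothalamus, with 2657 at an unadjusted p under 0.05.

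For the 110 named genes, 1939 of 1977 values under alternatives kept their direction and side of the threshold and 34 passed it, 27 of these with DESeq2. The 4 that reversed were Itgam without HFHS 3 (−0.029, in a range up to 0.67 when 1 library was left out) and Atp1b2 with voom (−0.038), without HFHS 2 (−0.16, in a range up to 0.84) and without HFHS 2 and SC 6 (−0.13). Of 810 list medians under alternatives, 799 moved by less than 1 SD. The 11 others were, with transcript length as a covariate, leptin and insulin signalling (0.13), fatty acid synthesis (0.39), lipoprotein and LXR (0.25) and synaptogenic and matrix genes (0.12); with the replicate block, fatty acid synthesis (0.34); without HFHS 4, feeding hormone receptors (−0.37); without HFHS 2, endfoot (0.13) and lysosome (0.11); and without HFHS 2 and SC 6, astrocyte (0.27), GABA handling (0.11) and endfoot (0.090). The length covariate also moved counts of lists given above: choroid plexus genes higher from 3 to 7, ATF4 targets higher from 2 to 4 and ependymal genes lower from 1 to 3. Leaving out SC 6 and HFHS 2 together was chosen after seeing the data.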
